A study of Homo sapiens with 7 samples.

Results

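The metallothionein gene cluster lies on chromosome 16. The genes described here are MT1A, MT1B, MT1E, MT1F, MT1G, MT1H, MT1M, MT1X, MT2A and MT3, 10 symbols that were looked up by name among the 23303 named loci of the expression table. All 10 were found, in 9 rows, since MT1B and MT1E are listed together in 1 row. The data are from HepG2, an established human liver cancer cell line, grown without a treatment that the labels name. There were 7 samples, 1 each of native MNase-Seq and RNA-Seq and 5 of ChIP-Seq, which covered H3K27me3, H3K9me3 and the active marks H3K4me3, H3K9ac and H3K27ac. The design therefore holds no replicate samples and no groups, and no P value is given. HepG2 is a single line, so the values describe these cultures and not hepatocytes or liver tumours in general.

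Metallothioneins are short, cysteine-rich proteins that bind zinc and copper, and also cadmium, in the cytoplasm and nucleus. MT2A and the MT1 genes are known to be induced by metals through MTF1, a zinc-sensing transcription factor that binds metal response elements in their promoters. They are also induced by glucocorticoids and stress in liver, while MT3 is best known from the brain.

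The promoters are shown first, because the metal response elements of these genes lie there. RefSeq promoters, from 250 bases before to 50 after the start of a gene, were at hand for 4 of the 10 members, namely MT2A, MT1B, MT1H and MT1X. The 250 bases before the start are printed 5′ to 3′ on the plus strand of GRCh38.p14, at chr16:56608334-56608583 for MT2A, chr16:56651636-56651885 for MT1B, chr16:56669564-56669813 for MT1H and chr16:56682220-56682469 for MT1X. These coordinates belong to another build than the nucleosome data below, which are in hg19. Capitals mark matches to the core of the metal response element, searched as TGCACNC or TGCGCNC on both strands.
MT2A: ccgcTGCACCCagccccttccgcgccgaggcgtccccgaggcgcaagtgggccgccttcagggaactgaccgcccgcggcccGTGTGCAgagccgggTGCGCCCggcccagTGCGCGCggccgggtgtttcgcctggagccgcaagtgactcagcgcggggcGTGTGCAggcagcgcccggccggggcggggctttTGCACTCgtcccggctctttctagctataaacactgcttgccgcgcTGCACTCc
MT1B: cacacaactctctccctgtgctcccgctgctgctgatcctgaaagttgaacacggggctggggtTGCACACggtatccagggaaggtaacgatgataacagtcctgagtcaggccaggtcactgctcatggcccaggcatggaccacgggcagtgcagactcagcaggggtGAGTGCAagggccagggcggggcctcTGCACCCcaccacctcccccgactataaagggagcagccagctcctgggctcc
MT1H: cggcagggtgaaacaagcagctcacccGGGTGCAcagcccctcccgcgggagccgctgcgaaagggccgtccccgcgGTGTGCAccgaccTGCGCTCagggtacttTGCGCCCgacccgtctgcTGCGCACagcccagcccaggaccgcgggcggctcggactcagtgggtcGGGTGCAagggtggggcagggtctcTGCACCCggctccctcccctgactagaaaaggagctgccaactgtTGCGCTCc
MT1X: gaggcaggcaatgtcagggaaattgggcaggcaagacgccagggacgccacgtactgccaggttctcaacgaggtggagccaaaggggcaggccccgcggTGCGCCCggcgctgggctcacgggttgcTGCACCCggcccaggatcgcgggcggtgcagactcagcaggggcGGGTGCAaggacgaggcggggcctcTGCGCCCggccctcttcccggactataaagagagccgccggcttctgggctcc

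The core was found 8 times in the 300 bases of MT2A, 8 times in those of MT1H, 4 times at MT1X and 3 times at MT1B. One of the 8 matches at MT2A lies after the start, so 7 are in capitals above. Of all 35116 RefSeq promoters of this length, 29.6% held at least 1 core, 2.3% at least 3, 0.601% at least 4 and 0.0199% at least 8. MT1B, MT1H and MT1X each had a core at bases -53 to -47, counted from -1 at the base before the start, and MT2A had one at bases -54 to -48. The TATA box, searched as TATAAA on both strands, was found at MT2A, MT1B and MT1X but not at MT1H, and is in 11.5% of all promoters. It began at base -29 of MT2A and at base -30 of MT1B and of MT1X. The GC box GGGCGG was found at all 4 promoters, with 2 matches at MT2A, 2 at MT1X and 1 each at MT1B and MT1H, and is in 45% of all promoters. At MT1X, 1 core overlapped a GC box. The antioxidant element TGACNNNGC was found once each at MT2A, MT1B and MT1X, against 13.3% of all promoters. The E-box CACGTG was found only after the start of MT1H, against 7.26%. These matches describe the reference sequence and show no binding in HepG2.

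RNA-Seq was deposited as FPKM, fragments per kilobase of transcript scaled to the mapped fragments of the library, in 2 columns of 1 sample, here called run 1 and run 2. Their mean was used, and whether the runs are separate cultures is not stated. FPKM is a level per length, so levels of different genes can be set side by side as far as the lengths used are right. Those lengths were not examined here, so the ranks of these short genes against longer ones carry that uncertainty. The coding sequences of the MT1 genes and MT2A are near-copies of each other, so reads may have been split among them or counted to another member, and the levels of single members are uncertain to that extent.

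Metallothionein mRNA was abundant in HepG2, and 5 of the 9 rows held nearly all of it. MT2A had 751 FPKM in run 1 and 784 in run 2, the highest of the rows. The row of MT1B and MT1E had 247 and 241 FPKM, and the parts of MT1B and of MT1E in it cannot be told apart. MT1G had 154.5 and 151 FPKM. MT1X had 110 FPKM in run 1 and 129 in run 2. MT1F had 71.1 and 73.4 FPKM. These 5 rows made up 99.5% of the FPKM of the members, and MT2A alone 56.3%. In each of them the runs lay closer to each other than to the runs of the next row, so their order was the same in both runs.

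The other 4 rows were low or at 0. MT1A had 4.31 FPKM in run 1 and 4.98 in run 2. MT1M had 2.01 and 1.04 FPKM, and MT1H had 1.003 and 1.48. MT1M and MT1H cannot be put in order, since their runs overlap. MT3, the member known from the brain, was listed at 0 in both runs, as were 26.2% of the named loci. The step from MT1F to MT1A, 15.5-fold by the means, was the widest between neighbouring rows above 0 FPKM. In bulk RNA, fewer cells with a transcript and less of it per cell cannot be told apart.

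**Figure D1:**
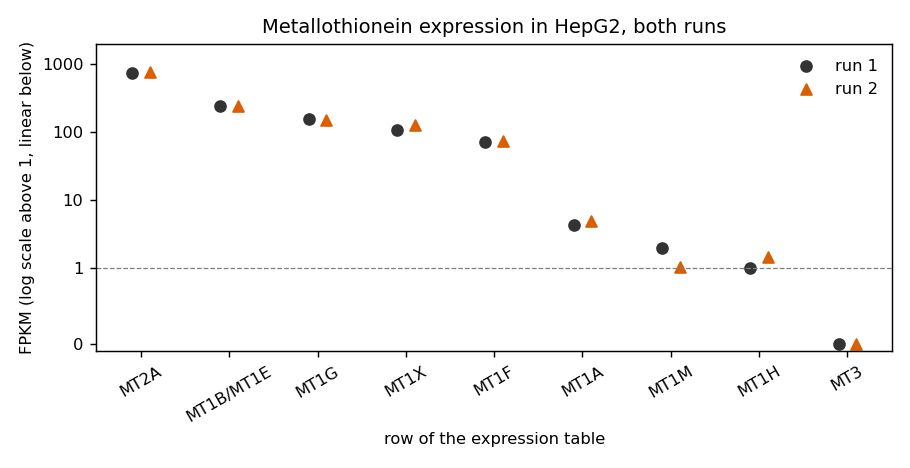
FPKM of the 9 rows that hold a metallothionein member, on an axis that is logarithmic above 1 and linear below, with circles for run 1 and triangles for run 2 of the 1 RNA-Seq sample and a dashed line at 1 FPKM. MT2A, MT1B/MT1E, MT1G, MT1X and MT1F lie between 71.1 and 784 FPKM, MT1A, MT1M and MT1H between 1.003 and 4.98, and MT3 at 0.

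With a mean of at least 1 FPKM counted as expressed, 8 of the 9 rows were expressed, against 48.7% of all named loci. At least 100 FPKM were reached by 4 rows, MT2A, MT1B/MT1E, MT1G and MT1X, against 3.11% of named loci. MT2A ranked 104th of the 23303 named loci by its mean. MT1B/MT1E ranked 260th, MT1G 449th, MT1X 585th and MT1F 1060th. MT1A was at the 62.4th percentile, MT1M at the 53.7th and MT1H at the 52.5th, close to the middle of the named loci. The median over the 9 rows was 72.2 FPKM, against 0.790 over all named loci. The rows added up to 1341 FPKM in run 1 and 1385 in run 2, which was 0.156% and 0.141% of the FPKM of all loci.

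The runs gave closely alike values for the abundant members. The ratio of run 2 to run 1 was 1.04 for MT2A, 0.977 for MT1B/MT1E, 0.978 for MT1G, 1.17 for MT1X and 1.03 for MT1F, beside a median of 0.997 over the 11172 named loci with at least 1 FPKM in both runs. MT1M, at 0.518, was the member row above 0 whose runs differed by over 1.5-fold, and such a difference was found at 0.743% of those loci. MT1H had a ratio of 1.47 and MT1A of 1.15. Read counts were not used here, so whether the difference at MT1M exceeds its counting error is unknown.

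The cell line was compared with marker genes. All 8 hepatocyte markers had at least 56.6 FPKM, with APOA1 taken by the higher of its 2 rows, led by ALB (serum albumin) with 10011 and APOA2 (an apolipoprotein of high-density lipoprotein) with 5209. Of 10 markers of blood, endothelial cells, fibroblasts and bile duct cells, 2 reached 1 FPKM, namely KRT19 (a bile duct keratin) with 110 and PDGFRB (a fibroblast receptor) with 2.005. PTPRC and CD3E, which define leukocytes and T cells, were listed at 0.

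The members sit in a row with their pseudogenes. In RefSeq the order of this family along chromosome 16 is MT4, MT3, MT2A, MT1L, MT1E, MT1M, MT1JP, MT1A, MT1DP, MT1CP, MT1B, MT1F, MT1G, MT1H, MT1IP and MT1X. The expression table lists MT3 from 56623267 to 56625000, MT2A from 56640833 to 56646942 and MT1X from 56716382 to 56718108, in hg19. MT1A, MT1B, MT1E, MT1F, MT1G, MT1H and MT1M all carry the same interval, from 56658968 to 56711653, which they share with the pseudogenes MT1JP and MT1DP. Sharing an interval is common in the table, where 36% of the named loci do so, and it leaves these 7 members without a start of their own in hg19. Their marks are therefore described over the shared interval and, except for a remark on MT1B and MT1H, not gene by gene. By the order of numbering in the table, MT1G is on the minus strand and the other members are on the plus strand. The interval of MT2A is 6110 bp long, against 914 bp for the gene in RefSeq, so its listed start need not be where MT2A is transcribed from.

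Other members of the family were silent or nearly so. MT4, known from stratified epithelia, and the pseudogenes MT1JP and MT1DP were listed at 0 in both runs. MT1L, a transcribed pseudogene between MT2A and MT1E, had 0.140 and 0.176 FPKM. The nearest other genes with their own listed start were moderately expressed, BBS2 (a subunit of the ciliary BBSome) with 18.1 and 18.2 FPKM on one side and NUP93 (a nuclear pore protein) with 27.4 and 27.5 on the other. Further out within 200 kb, OGFOD1 had 33.3 and 37.2 FPKM and NUDT21 80.0 and 82.1, while MIR138-2 was at 0 and SLC12A3 at 0.00637 and 0.0150. MT2A thus stood above genes on either side of the cluster, and MT3 and MT4, listed between BBS2 and MT2A, were at 0.

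Nucleosome positions came from native MNase-Seq, and each histone mark was called by the authors at these positions, so that a position either carries a mark or does not. H3K4me3, H3K9ac and H3K27ac are marks of active promoters, and H3K27ac also of active enhancers. H3K27me3 and H3K9me3 are marks of repressed chromatin. A position with H3K4me3, H3K9ac and H3K27ac and no other mark is called trivalent or "T", one with H3K4me3/H3K9ac "D" and one with H3K4me3 alone "A". The number of reads behind a position or a peak is not given in the lists, so the depth behind each call is unknown here. The deposited lists hold fewer marked positions than the study describes, and every share of marked positions and every absence of a mark below refers to the deposited lists.

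From 20 kb before MT3 to 20 kb after MT1X, 56603267 to 56738108, there were 727 nucleosome positions, at a median distance of 180 bp from start to start, which is also the genome-wide median. Of these, 30 carried at least 1 mark, or 4.13% (exact 95% binomial interval 2.80 to 5.84), against 1.43% in the genome. H3K4me3 was at 24 positions, H3K9ac at 18 and H3K27ac at 13. H3K27me3 and H3K9me3 were at 0 of 727 positions, which allows a share of up to 0.413%, and their genome-wide shares of 0.185% and 0.243% lie below that limit. The absence of both marks from the window is thus not detectable as a difference from the genome. The intervals and limits cover counting error only, and they treat neighbouring positions as independent, which they may not be.

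The 30 marked positions formed 6 stretches, if positions whose starts are at most 1000 bp apart are joined. The first lies at MT2A, 4 lie in the shared interval, and the last lies at MT1X. No marked position was found at MT3, at MT4 or at MT1L. Within 2 kb of the start of MT3 there were 20 positions and none was marked, which allows a share of up to 15%, and 36.2% of the genes with their own listed start likewise had no mark there.

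**Figure D2:**
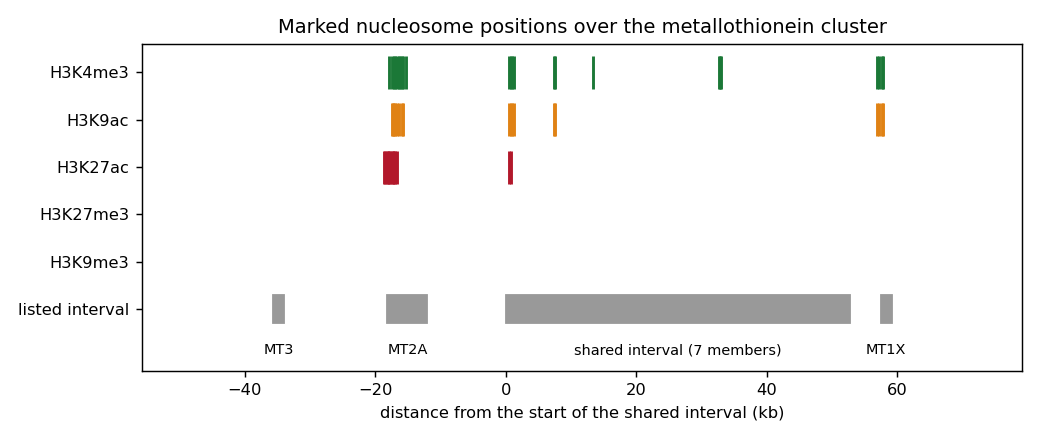
Positions with each of the 5 histone marks (vertical lines, 1 row per mark) over the cluster and 20 kb on either side, by distance in kb from the start of the interval that 7 members share, with the intervals listed for the members as grey boxes. H3K4me3 is found in all 6 stretches, H3K27ac in the first 2, and H3K27me3 and H3K9me3 at no position.

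MT2A, the most abundant member, had the longest stretch, with 16 marked of 18 positions from 56640217 to 56643696. The stretch changes in kind along its length. The first 4 marked positions, starting from 56640217 to 56640802, carried H3K27ac alone. They were followed by H3K4me3/H3K27ac at 1 position and H3K27ac alone at 1. From 56641502 to 56642306 there were 4 "T" and 1 H3K9ac/H3K27ac. Then 297 bp, from 56642307 to 56642603, held no nucleosome position. Beyond this spacing came 5 marked positions, 3 "D" and 2 "A", up to 56643696.

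All 11 marked positions before the spacing carried H3K27ac, and none of the 5 beyond it did. All 5 positions beyond it carried H3K4me3, as did 5 of the 11 before it. H3K9ac was on either side, at 5 positions before and 3 beyond. The distance of 437 bp from start to start across the spacing was longer than 98.1% of the distances between neighbouring positions in the genome.

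Within 2 kb of the listed start of MT2A, 13 of 22 positions were marked, or 59.1% (exact interval 36.4 to 79.3). The counts were 11 for H3K27ac, 7 for H3K4me3 and 6 for H3K9ac, with 4 "T". Of the 13368 genes with their own listed start, 0.254% had more H3K27ac positions within 2 kb than MT2A, and 11.3% had more "T". Of the 13 marked positions, 3 lay upstream of the listed start, each with H3K27ac alone, and 10 downstream. Since the listed interval of MT2A is longer than the gene, transcription may begin elsewhere in it. The listed interval of MT1X has its RefSeq length, 1727 bp. If MT2A lies as far from MT1X in hg19 as in GRCh38.p14, its RefSeq start falls in the spacing from 56642307 to 56642603. The 11 marked positions before the spacing, all with H3K27ac, would then lie upstream, and the 5 beyond it downstream. This placement was not checked against an hg19 annotation. The split of 3 and 10 and the counts within 2 kb therefore hold for the listed start only. The median of the 388 genes with at least 100 FPKM was 7 marked positions and 4 "T", so MT2A had as many "T" as that median and more H3K27ac, 11 against 4.5.

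MT1X had a short stretch of another kind. Its 4 marked positions, which start at 56715792, 56716052, 56716467 and 56716620, all carried H3K4me3/H3K9ac. No position within 2 kb of its listed start carried H3K27ac, out of 21 positions, which allows a share of up to 14.3%. The 2 positions on either side of the listed start were separated by 275 bp without a nucleosome position, from 56716192 to 56716466, and the distance of 415 bp between their starts was longer than 97.6% of those in the genome. The listed start at 56716382 lies inside this spacing. With 4 "D", MT1X had more than 98.3% of the genes with their own listed start.

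**Figure D3:**
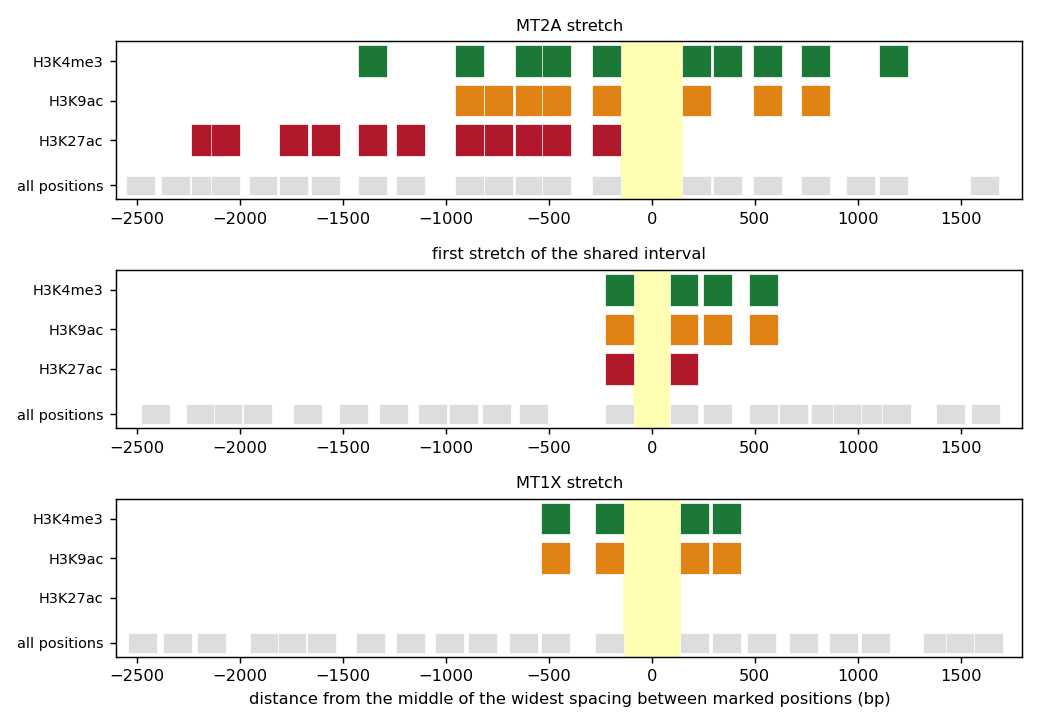
Nucleosome positions (grey boxes) and those with H3K4me3, H3K9ac and H3K27ac (coloured boxes) in 3 stretches, by distance in bp from the middle of the widest spacing between marked positions, which is shaded. At MT2A, H3K27ac is at 11 positions left of the spacing and 0 right of it, in the first stretch of the shared interval it is at 2 positions, and at MT1X at 0.

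Only 3 of the 10 members have a start of their own, and they differed. MT2A had at least 1 "T" within 2 kb of its start and MT1X and MT3 had 0, so 1 of 3 had a "T", against 42.9% of the genes with their own start. H3K27ac was likewise at 1 of 3, against 44.9%, and "D" at MT2A and MT1X, 2 of 3, against 30.8%. H3K4me3 was at the same 2 of 3, against 54.2%. H3K27me3 or H3K9me3 was at 0 of 3, against 11.3%. Among the 388 genes with at least 100 FPKM, 6.7% had no H3K27ac within 2 kb and 9.28% no "T". MT1X is in both groups. It was also the only one of the 26 such genes without H3K27ac that had 4 or more "D", a limit taken from MT1X itself after its values were seen. Most of the 26 had no mark of any kind within 2 kb of the listed start, and so could hold no "D". Whether the listed starts of these genes are where they are transcribed from was not examined.

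**Figure D4:**
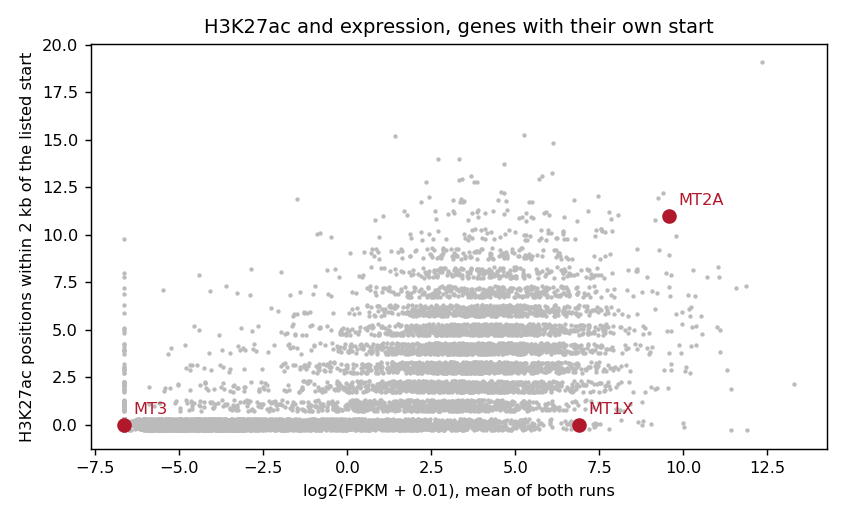
Number of H3K27ac positions within 2 kb of the listed start against log2(FPKM + 0.01), the mean of both runs, for the 13368 genes with their own start (grey, spread vertically at random by less than 1 position) and for MT2A, MT1X and MT3 (red). MT2A has 11 such positions at 768 FPKM, MT1X has 0 at 119 FPKM and MT3 has 0 at 0 FPKM.

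The shared interval had 288 nucleosome positions, of which 10 were marked, or 3.47% (exact interval 1.68 to 6.29). All 10 carried H3K4me3, 6 carried H3K9ac and 2 carried H3K27ac. The rows of the members in it added up to 479 FPKM in run 1 and 473 in run 2, over MT1B/MT1E, MT1G, MT1F, MT1A, MT1M and MT1H. In the table's order, the first stretch began 439 bp after the start of the interval, from 56659407 to 56660246, and had 2 "T" followed by 2 "D". The second, from 56666282 to 56666556, had 2 "D". The third was a single "A" from 56672312 to 56672451. The last, from 56691582 to 56692081, had 3 "A".

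The number of marks per position thus fell along the interval, from 3 marks to 2 and to 1, before rising to 2 again at MT1X. H3K27ac was at 0 of the 10 marked positions in the 4 stretches from the second of the shared interval to MT1X. In RefSeq, 11 genes of the family, 7 of them protein-coding, are listed between MT1L and MT1X, against 4 marked stretches in the shared interval. From the end of its last stretch to the first marked position at MT1X, 56692082 to 56715791, 131 positions in 23710 bp carried no mark, which allows a share of up to 2.29%. Which member each stretch belongs to was not resolved with these coordinates. If MT1B and MT1H lie as far from MT1X in hg19 as in GRCh38.p14, no marked position lies within 2 kb of their RefSeq starts. This placement was not checked against an hg19 annotation.

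Where H3K4me3 and H3K9ac occurred together in the cluster, H3K27ac was mostly missing. Of the 17 positions that were "T" or "D", 6 were "T", or 35.3% (exact interval 14.2 to 61.7), and 11 were "D". In the genome, 73.8% (73.4 to 74.1) of such positions were "T", and within 2 kb of the starts of the 13368 genes 73.8% (73.3 to 74.4). The interval of the cluster lies below these shares, but it covers counting error only. The 17 positions lie close together in a few stretches and may not be independent, and the difference was not tested. "D" was at 1.51% of the positions of the cluster (0.758 to 2.69) and at 0.107% in the genome, a ratio of 14.2, while "T" was at 0.825% (0.303 to 1.79) and 0.301%, a ratio of 2.74. Most of the window lies away from starts. Within 2 kb of the starts of the 13368 genes, "T" was at 7.58% and "D" at 2.68% of 246418 positions, both above the shares of the cluster.

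Clusters of other liver genes were counted in the same way, with 20 kb on either side. Around FGA, FGB and FGG, the fibrinogen genes, 8.70% of 460 positions were marked (6.28 to 11.7), and 57.1% of 14 "T" or "D" positions were "T" (28.9 to 82.3). Around ALB, AFP, AFM and GC, the albumin gene family, 1.68% of 9107 positions were marked (1.43 to 1.97), and 78.1% of 32 were "T" (60.0 to 90.7). The difference in the share of "T" between the metallothionein cluster and either of these was not tested, and neighbouring positions may not be independent. H3K27me3 or H3K9me3 was at 59 of 9107 positions in the albumin window and 3 of 460 in the fibrinogen window, against 0 of 727 in the metallothionein window. The albumin window, from 72587411 to 74389718 on chromosome 4, is much the largest, so these counts cannot be compared directly. The difference was not tested.

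Genes that control or share metal handling were also listed. MTF1, the zinc sensor, is in a row with INPP5B that had 5.79 and 5.65 FPKM, the lowest of 7 factors known to bind metallothionein promoters, and reads of INPP5B cannot be separated from it. NFE2L2, the antioxidant response factor, was the highest with 109 and 111 FPKM, and all 7 had at least 1 FPKM. Of the zinc exporters, 6 of 10 had at least 1 FPKM, with SLC30A9 highest at 36.0 as a mean and SLC30A2 at 0. SLC30A1, the exporter of the plasma membrane that MTF1 is known to induce, had 25.7 and 26.2 FPKM. Of the zinc importers, 11 of 14 had at least 1 FPKM, but 4 of the 14, SLC39A1, SLC39A4, SLC39A5 and SLC39A7, are in rows with other genes, whose reads enter the count and the median. USF1, one of the 7 factors, is likewise in a row with other genes. SLC39A14, a hepatocyte importer of zinc and iron, led them with 174.3 in both runs, and SLC39A2 was at 0. All 9 genes of copper handling had at least 1 FPKM, from 2.27 for ATP7A, a copper pump little used in hepatocytes, to 253 for SOD1, the copper-zinc superoxide dismutase. Each of these lists had a lower median than the metallothionein rows, with 11.5 FPKM for the factors, 10.6 for the exporters, 21.3 for the importers and 39.3 for copper handling.

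**Figure D5:**
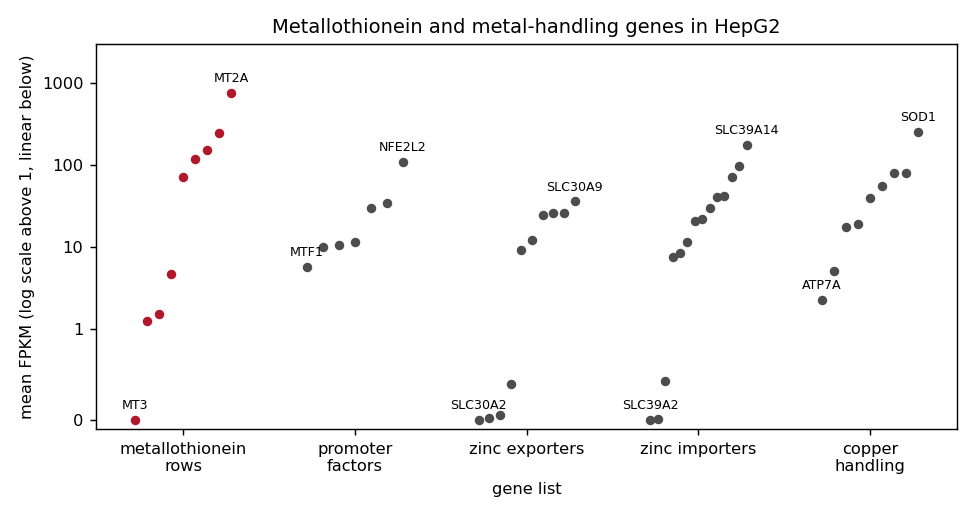
Mean FPKM of both runs for the 9 metallothionein rows (red) and for 4 lists of metal-handling genes (grey), each sorted from low to high with its lowest and highest gene named, on an axis that is logarithmic above 1 and linear below. MT2A, at 768 FPKM, lies above every gene of the 4 lists, the highest of which is SOD1 with 253.

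Among the genes of these lists with their own start, "T" was within 2 kb at 5 of 8 exporters, 5 of 9 importers, 4 of 4 copper genes and 1 of 4 factors, against 42.9% of all genes with their own start. SLC30A3, an exporter known from synaptic vesicles, had 4 "D" and no H3K27ac within 2 kb, the same counts of these as MT1X but among 8 marked positions against 4, at 0.450 and 0.343 FPKM.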

How the data were processed

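HepG2 cells were profiled by native MNase-Seq, ChIP-Seq of 5 histone marks and RNA-Seq, with 1 sample per assay. The submitters' processing notes name hg19, BWA for the MNase-Seq and ChIP-Seq samples, and TopHat2 2.1.0, Bowtie, HOMER 4.7 and edgeR for RNA-Seq, without their roles. The authors called nucleosome positions with DANPOS and peaks at these positions with NUCLIZE by enrichment over input and local background, and gave coordinates and identifiers in the files. RNA-Seq was deposited by the authors as 2 FPKM columns in a Cuffdiff layout, with fold changes and p-values of their own comparison of the columns, which were not used. Counts and depths were not used here. The counting tool and its strand setting are not given in the sources used here.

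Each peak was given to the position whose identifier it carries, beyond which it reached 3 bp on either side. Strand was taken from the order of locus numbers. Windows around starts could be set for MT2A, MT1X and MT3 only, since the table gives 7 members 1 shared interval, so the planned count per member was limited to these and the rest is given by interval. Genes with a single symbol, an unshared interval and an inferred strand (13368) were the background. Shares have exact Clopper-Pearson 95% intervals, and a count of 0 is given the limit of 3 counts. The planned comparison of member proteins was not made, as protein sequences were not used here. Promoters and gene order are from RefSeq (GRCh38.p14). No coordinate was converted, but the RefSeq starts of MT2A, MT1B and MT1H were placed in hg19 by their distance from MT1X. The counting steps were tested on simulated data. The members and lists were chosen with earlier results of these data known. All members are named. Genes within 200 kb are named too, except 1 that is not reported here. Of the lists of metal-handling genes, the highest, the lowest and MTF1 are named, SLC30A1 and SLC30A3 were added after their values were seen, and genes most alike to MT2A are the 5 nearest by log2(FPKM + 0.01) and the counts of 5 marks, each divided by its SD. Alternatives were each run alone, other limits of expression, windows and flanks, any overlap as a match, a pseudocount of 1 and the transcribed strand for motifs. Scripts used scipy 1.17.1, pandas 2.3.3, matplotlib 3.10.9 and numpy 2.4.6 under Python 3.11.15.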

Additional observations from a re-analysis of the deposited data

How the results depend on the processing

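With a limit of 5 FPKM in place of 1, 5 of the 9 metallothionein rows counted as expressed instead of 8, as MT1A, MT1M and MT1H fall below it. With 0.1 FPKM and with either run alone it was 8. A pseudocount of 1 in place of 0.01 lowered the largest log2 ratio between the runs, that of MT1M, from 0.94 to 0.56 in size. Counting the intervals of all members with 2 kb on either side in place of listed starts, a choice made after the data were seen, gave a "T" at 2 intervals, those of MT2A and of the 7 members that share one, instead of at 1 start. H3K27me3 and H3K9me3 were at 0 of them. The marked share was 5.80% without flanks and 3.52% with 50 kb on either side, within the binomial interval of the reported 4.13%. With any overlap of at least 1 bp as a match it was 4.13% and the share of "T" 0.963%. Windows of 1 and 5 kb left the count of starts with "T" at 1. Among loci above 0 in both runs only, percentiles fell, for MT1H to 30.4 and for MT2A to 99.4. No paired analysis was possible because each assay has 1 sample. A stricter peak threshold could not be set, since the lists give no scores.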

Other observations

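The 5 genes outside the cluster most like MT2A, by FPKM and the counts of the 5 marks within 2 kb of the start (6 measures over 13368 genes), were QPRT, CFI, DNAJB1, PCK2 and NR2F6. QPRT, an enzyme of NAD synthesis, had 222 and 218 FPKM, 11 H3K27ac, 8 H3K4me3 and 5 H3K9ac positions, beside 11, 7 and 6 at MT2A. CFI, complement factor I, had 111 and 106 FPKM with 10 H3K27ac positions, and DNAJB1, a heat shock protein, had 60.1 and 64.9 FPKM with 10. PCK2, the mitochondrial phosphoenolpyruvate carboxykinase, had 167 and 162 FPKM, and NR2F6, a nuclear receptor, 44.1 and 42.6. All 5 had less mRNA than MT2A.

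Of the 26 genes with at least 100 FPKM and no H3K27ac within 2 kb of the listed start, AFP (alpha-fetoprotein) was the most abundant, at 3798 FPKM. It had 3 "D" and 4 "A", so that, as at MT1X, H3K4me3 and H3K9ac were called there without H3K27ac. ALDOA, CALR, GSN, CYC1, PRDX4 and PPT1, also among the 26, had 1 "D" each. FDFT1 and ASNS had marks but no "D", and the rest of the 26 had no mark there. AFP and these genes were named after their values were seen.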
